A study of Mus musculus with 4 samples.

Results

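The cells described here are the endocardial cells of mouse hearts at postnatal day 2 (P2) and in adulthood (Adult), that is, the endothelial cells that line the chambers. They were picked from single-cell RNA-seq libraries by their own counts of unique molecular identifiers (UMIs, each standing for 1 captured transcript). A barcode was taken as an endocardial cell when the UMIs of *Npr3*, *Tmem108*, *Cpe* and *Gsta4* summed to at least 1 and to more than those of *Fabp4*, *Cldn5*, *Aplnr* and *Gpihbp1*, when *Pecam1*, *Cdh5* and *Egfl7* gave at least 1 UMI, and when *Cldn11* and *Enpp2* gave at most 1. This rule kept 1336 of 5884 P2 barcodes (22.7%, exact 95% binomial interval 21.6 to 23.8) and 127 of 4242 Adult barcodes (2.99%, 2.5 to 3.55), or 1463 of the 10126 barcodes of both libraries and of 21920 in the series. The 13 genes of the rule are therefore a description of the choice and are left out of every count below.

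The study followed cardiac endothelium through embryonic day 12 (E12), E15, P2 and Adult, with 1 library per stage of CD31+/CD45- cells sorted from dissociated hearts. The P2 library pooled 21 hearts and the Adult library pooled 6 hearts of mice aged 8 weeks. All animals carry the strain label C57Bl6J (C57Bl6 in the protocol text), and the labels give no transgene, deletion or treatment at either stage. Cells of both stages were frozen in DMSO before capture and sorted again for live cells after thawing. Because animals were pooled, a cell could not be traced to its heart, and 1 library per stage leaves no replicate, so stage and library cannot be told apart. Every interval given here covers counting error only, and no difference was tested against the spread between animals. The hearts differed in preparation as well as in age, since red cells were lysed in the Adult suspension.

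The endocardium is the inner lining of the heart, continuous with the endothelium of the great vessels and the surface of the valves. Before birth it borders the trabeculae, signals to the growing myocardium, and gives rise to the valve mesenchyme and to part of the coronary vessels. By adulthood growth of the heart by cell division has largely ended, and the wall is fed by the coronary bed. The endocardium remains as a thin sheet. It is exposed to the blood of the chamber on 1 side and rests on an elastic, collagenous layer on the other.

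Genes that the rule did not use were read first as a check of the label. Of 12 endocardial markers outside the rule, among them *Nfatc1*, *Plvap*, *Cytl1*, *Gata4* and *Hmcn1*, 12 were higher in these cells than in the coronary endothelial cells (CoECs) of the same library at both stages. CoECs were taken by the mirrored rule (4078 P2 and 3940 Adult cells). The markers summed to 4559 counts per 1000000 UMIs of the summed cells (CPM) against 709 in P2 CoECs, 6.43-fold, and to 5874 against 382 in Adult CoECs, 15.4-fold. Of 16 coronary markers outside the rule, 14 were lower in the endocardial cells at P2 and 15 in the Adult. Valve markers were also present: all 9 were above their CoEC level at both stages, summing to 810 CPM at P2 and to 1076 CPM in the Adult. Beyond the limit on *Cldn11* and *Enpp2*, no step set valve-surface cells apart. Whether the chosen cells held valve-surface cells was not tested.

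Depth differed between the stages. P2 endocardial cells had a median of 4491.5 UMIs and 1956.5 genes, and Adult endocardial cells 2619 UMIs and 1372 genes, giving sums of 6292798 and 366171 UMIs. Adult CoECs had a median of 1484.5 UMIs. The 2 libraries shared 39 barcodes, 0 of them among the endocardial cells. A gene with 1 UMI in the Adult sum already reads 2.73 CPM, so low Adult levels are coarse, and a gene with 0 Adult UMIs is given below as a bound from 3 counts. Cells just inside the threshold of the rule, by 1 UMI, numbered 61 at P2 and 18 in the Adult. Cells just outside numbered 38 (tied) and 25 (1 UMI short) at P2 and 12 and 10 in the Adult. *Cytl1*, outside the rule, stood at 1357 CPM in the 18 Adult cells just inside and at 1777 and 1648 CPM in the tied cells and those 1 UMI short.

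Some cells that met the rule also carried fibroblast transcripts. A total of 10 Adult cells (7.87% of cells, 14.2% of UMIs) and 69 P2 cells (5.16% and 7.4%) held at least 10 UMIs of *Gsn*, *Dpt*, *Col1a1*, *Col1a2*, *Col3a1* and *Pdgfra*. This limit was the same at both stages although P2 cells were deeper, so the shares are not matched in depth. With P2 cells thinned to 1510 UMIs, 1326 met the rule and 1313 of them held fewer than 10 such UMIs. The 10 Adult cells had 0 UMIs of *Npr3*, 116 CPM of *Pecam1* and 35177 CPM of *Gsn*, whereas the other 117 had 1187, 1461 and 105 CPM. At P2, 35 of the 69 held *Npr3*, and *Pecam1* stood at 836 CPM. The 10 Adult cells thus went against their name, and the named genes whose call they change are given with and without them. The fibroblast list had 5 of 9 counted members higher with these cells and 3 of 7 without, a smaller count that follows from the removal, since the 6 genes that picked the cells are of that kind.

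The levels of the rule's own genes are stated once as a description. *Npr3*, the natriuretic peptide clearance receptor, stood at 540 CPM at P2 and 1019 CPM in the Adult. *Cpe*, a carboxypeptidase, stood at 1667 and 1873 CPM, *Tmem108* at 591 and 328 CPM, and *Gsta4*, a glutathione transferase, at 318 and 107 CPM. *Pecam1*, the junctional CD31 antigen, stood at 689 and 1270 CPM.

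Levels of all other genes were then set side by side as CPM over the summed cells of each stage. A gene was called higher or lower in the Adult where the Adult to P2 ratio was at least 2 or at most 0.5 and its exact 95% interval left out 1, among genes with at least 20 UMIs over both stages. Of 10736 such genes, 753 were higher (7.01%) and 626 lower (5.83%), and the median log2 ratio over all of them was -0.08. The counts of called members in every list below are to be read against these shares. They are over all endocardial cells unless stated otherwise, and several of them differed without the fibroblast-gene cells. Because the Adult sum was far smaller (366171 against 6292798 UMIs), a gene near the count minimum could be called higher but not lower. With that minimum lowered to 1 UMI, 966 of 15357 genes were higher and still 626 lower. A count of 0 lower among scarce genes is limited in the same way. Without the fibroblast-gene cells, 698 of 10559 genes were higher (6.61%) and 599 lower (5.67%), of which 574 and 494 were shared with the counts over all cells. In the plot of Adult against P2 CPM, the called genes lie on both sides of the diagonal. Some genes named below, such as *Nos3* and *Kdr*, were not called and lie close to it.

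**Figure D1:**
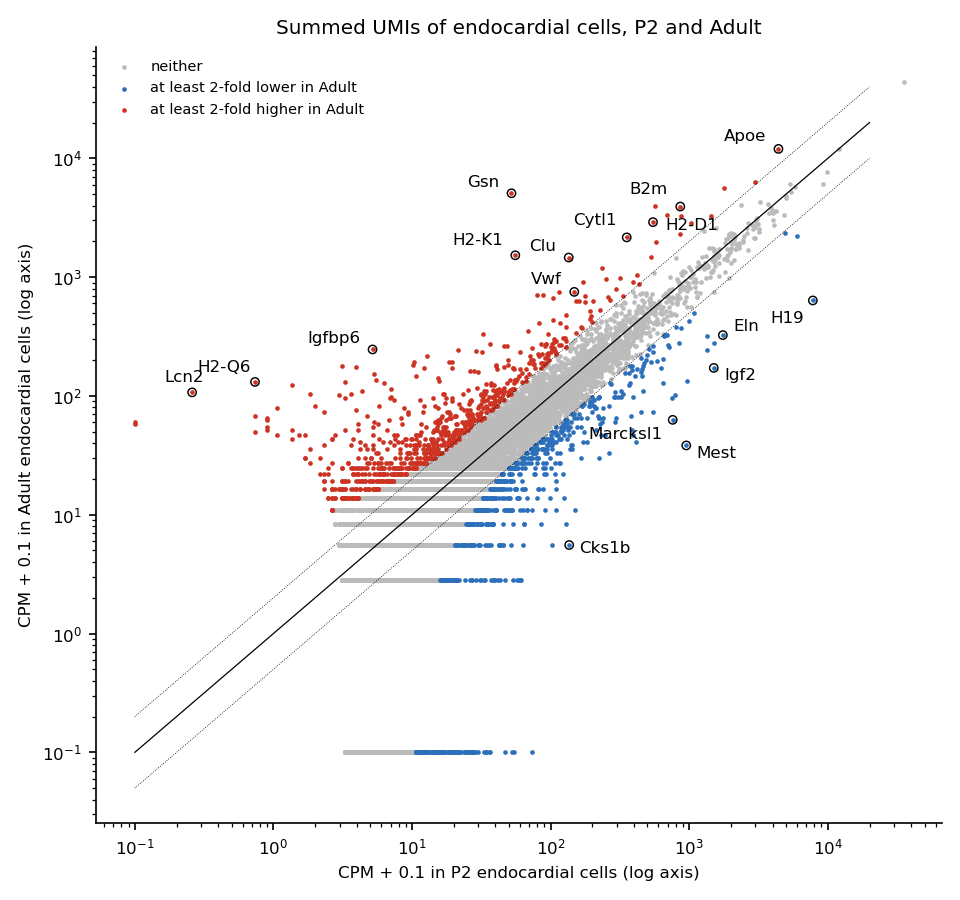
Summed level of each gene in P2 (x) and Adult (y) endocardial cells, as CPM + 0.1 on log axes; each point is 1 gene, red where higher in the Adult (753 genes), blue where lower (626) and grey otherwise, with the line of equal level solid and the 2-fold lines dotted. H19 and Mest lie far below the diagonal and H2-K1 and Igfbp6 far above it.

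Imprinted growth genes were lower in the Adult cells. Of 17 counted imprinted genes, which act on fetal growth from 1 parental copy, 10 were lower and 1 was higher, with a median log2 ratio of -1.80 against -0.08 for all genes (-1.73 with the 2 members at 0 Adult UMIs placed at their bound). Their summed level was 14783 CPM at P2 and 2327 CPM in the Adult, a ratio of 0.157 (95% interval 0.147 to 0.168). Without the fibroblast-gene cells 11 were lower and 1 was higher.

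*H19*, a noncoding RNA (GRCm38 chr7:142575529-142578143, minus strand), stood at 7797 CPM at P2 and 636 CPM in the Adult, a ratio of 0.0816 (0.0714 to 0.0928). Its neighbour *Igf2* (chr7:142650766-142666816, minus strand), a fetal growth factor, stood at 1504 and 172 CPM, a ratio of 0.114 (0.0878 to 0.147). *Cdkn1c* (chr7:143458339-143461050, minus strand), an inhibitor of cyclin-dependent kinases in the same imprinted region, stood at 1349 and 243 CPM, a ratio of 0.18 (0.145 to 0.222). Thus both a growth factor and a brake on division from this region were lower in the Adult cells. *Mest* (chr6:30723547-30748465), a hydrolase-like imprinted gene, had the lowest ratio of the list among genes with Adult UMIs, 0.0402 (0.0219 to 0.0674), from 952 to 38.2 CPM. *Dlk1*, a Notch-like surface protein of growing tissues, stood at 34.3 CPM at P2 with 0 Adult UMIs, at least 4.19-fold lower. *Grb10*, an adaptor that dampens growth factor receptors, had a ratio of 0.225, *Gnas*, the stimulatory G protein subunit, 0.236, *Plagl1*, a zinc finger factor of the imprinted network, 0.318, and *Igf2r*, which clears IGF2, 0.363. *Zrsr1*, the single higher member, was low at both stages (3.81 and 24.6 CPM).

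The same rule kept 1363 E12 and 2048 E15 cells. Their median depth was 1290 (E12) and 1045.5 (E15) UMIs, below the P2 median of 4491.5. Median sums of the rule's endocardial genes were 1 (E12), 2 (E15), 14 (P2) and 7 (Adult) UMIs. Embryonic hearts also had a different enzyme digestion, and a dead cell kit replaced the second sort. Whether the rule picked like cells at every stage was not tested, so embryonic levels, here and below, describe libraries only. Read across the 4 libraries, the imprinted genes did not share a single course. *Mest* stood at 1851 and 2407 CPM at E12 and E15, above its P2 level of 952 CPM, and *Cdkn1c* at 3187 and 2500 CPM, above 1349 CPM. *H19*, by contrast, stood at 7246 and 9182 CPM, on either side of its P2 level of 7797 CPM, so that the large gap lay between P2 and Adult.

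**Figure D2:**
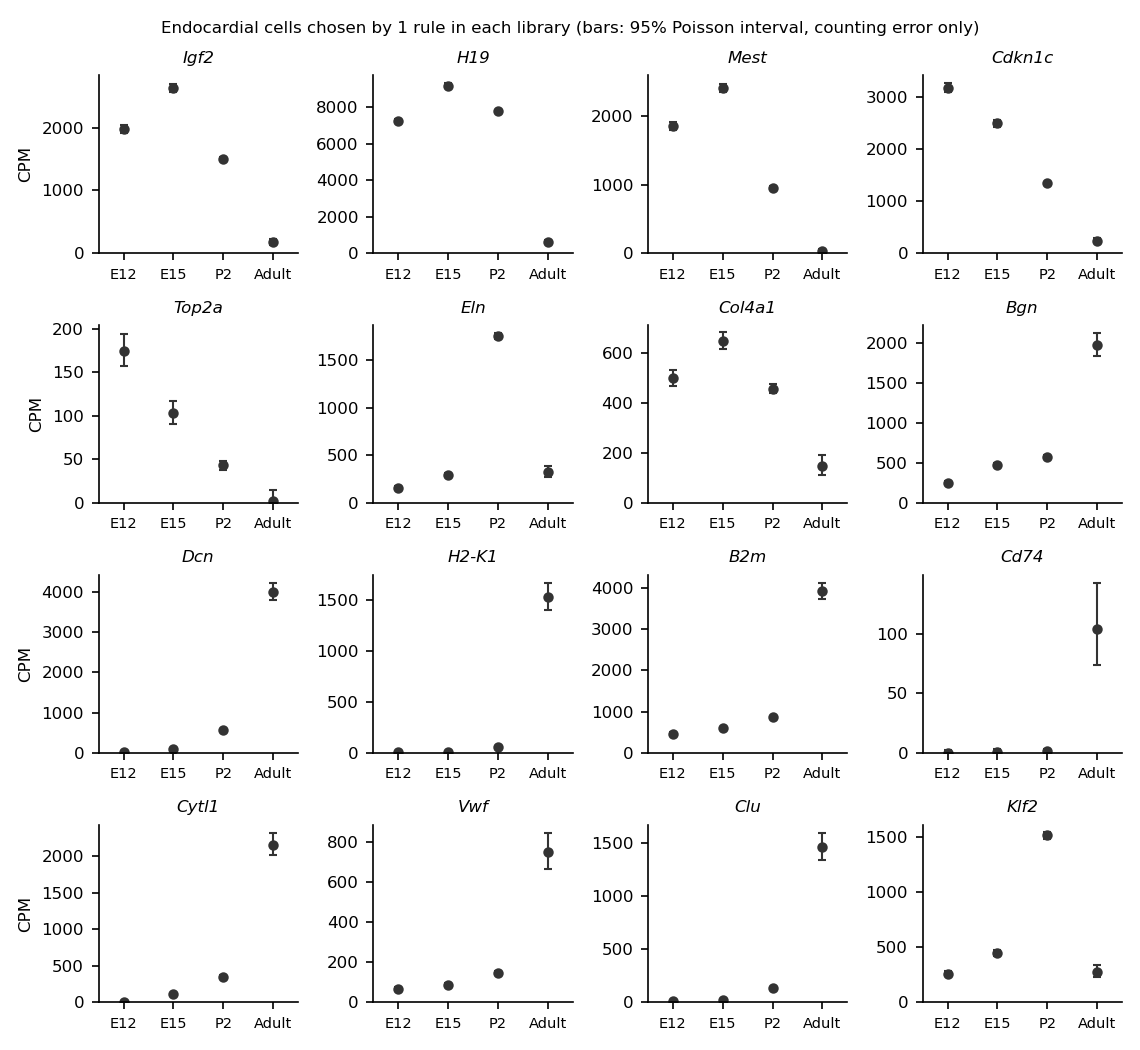
CPM of 16 genes summed over the endocardial cells of the E12, E15, P2 and Adult libraries (x), 1 panel per gene; points are 1 library each and bars are 95% Poisson intervals for counting error. H19 stays between 7246 and 9182 CPM from E12 to P2 and stands at 636 CPM in the Adult, whereas Klf2 is highest at P2.

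Genes of the cell cycle were lower or scarce in the Adult. Of 23 replication genes, 8 were lower and 0 higher (median log2 ratio -1.22, or -0.96 with the 4 members at 0 Adult UMIs placed at their bound), and of 24 mitosis genes, 16 were lower and 0 higher (-1.43 with the 14 members at 0 at their bound). Without the fibroblast-gene cells the lower counts were 6 and 13. *Top2a*, the topoisomerase that untangles replicated DNA, had 271 UMIs at P2 and 1 in the Adult (ratio 0.0634, 0.0016 to 0.356). *Birc5* (survivin) was at least 4.42-fold lower, *Ube2c*, a ubiquitin-conjugating enzyme of mitotic exit, at least 4.02-fold, and *Ccnb2*, a mitotic cyclin, at least 3.47-fold. These bounds rest on 0 Adult UMIs, and with every barcode thinned to 1000 UMIs and the rule applied again the ratio was 0.654 for *Birc5* and 0.503 for *Ccnb2*. More abundant genes gave tighter ratios: *Hmgb2*, a chromatin protein of dividing cells, stood at 382 and 68.3 CPM (0.179, 0.116 to 0.265), *Stmn1*, which destabilises microtubules, at 385 and 51.9 CPM (0.135, 0.0809 to 0.211), and *H2afz*, a histone variant, at 709 and 257 CPM (0.362, 0.292 to 0.444). *Mki67* was low at P2 itself, 63 UMIs, with 0 in the Adult. With each cell thinned to 1000 UMIs, 7.56% of P2 endocardial cells (6.12 to 9.22) and 3.33% of Adult ones (0.693 to 9.43) held a UMI of 8 mitotic genes, intervals that overlap. In CoECs the same shares were 23.2% and 1.92%, and without thinning the endocardial shares were 24.7% and 4.72%.

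Several genes of elastic fibres and of the basement membrane, which form the layer under the endocardium, were lower in the Adult, while *Dcn*, *Lum* and *Bgn*, which encode small proteoglycans, were higher. Of 25 interstitial matrix genes, 8 were higher and 8 lower (median log2 ratio -0.62). Without the fibroblast-gene cells 4 of 23 were higher and 9 lower (-0.81). *Eln*, elastin, stood at 1748 CPM at P2 and 325 CPM in the Adult, a ratio of 0.186 (0.154 to 0.223). *Mfap2*, a microfibril protein of elastic fibres, stood at 755 and 95.6 CPM, 0.127 (0.0881 to 0.176), and *Fbln2*, which binds elastic fibres, at 447 and 73.7 CPM, 0.165 (0.109 to 0.241). *Fbln5*, which links elastin to integrins, was lower too (0.443), whereas the microfibril genes *Fbn1* (0.627, 0.399 to 0.941) and *Emilin1* (0.626, 0.467 to 0.823) did not pass the threshold, and *Mfap5* passed it without the fibroblast-gene cells (0.225) and not with them (0.65). *Eln* stood at 160 CPM at E12 and 288 CPM at E15, below both postnatal levels. *Vcan*, the large proteoglycan of the embryonic cardiac jelly, had a ratio of 0.233, or 0.031 (0.000784 to 0.173) without the fibroblast-gene cells, *Tgfbi*, a TGF-beta induced adhesion protein, 0.208, and *Col5a2*, a fibril collagen, 0.363.

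In the basement membrane list, 4 of 14 genes were lower and 2 higher (median log2 ratio -0.61). Both chains of the main collagen IV network were lower: *Col4a1* stood at 458 and 147 CPM (0.322, 0.241 to 0.421) and *Col4a2* at 224 and 65.5 CPM (0.292, 0.187 to 0.437). *Col18a1*, the endostatin precursor, had a ratio of 0.324 and *Nid1*, which links laminin to collagen IV, 0.358. *Lamb2*, a laminin chain, was higher (2.3, 1.55 to 3.31). *Col15a1* was higher over all cells (14.8) but stood at a ratio of 1.77 (0.201 to 7.23) without the fibroblast-gene cells.

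The small leucine-rich proteoglycans named here after their values were seen, which bind collagen fibrils, were higher in the Adult with and without the fibroblast-gene cells. *Dcn*, decorin, stood at 565 and 4006 CPM, a ratio of 7.09 (6.66 to 7.53), or 5 (4.62 to 5.41) without those cells. *Lum*, lumican, stood at 236 and 1188 CPM, 5.04 (4.52 to 5.62), or 4.7 without them. *Bgn*, biglycan, stood at 577 and 1980 CPM, 3.43 (3.17 to 3.72), or 3.3 without them. *Prelp*, of the same family, had a ratio of 18.3, or 9.74 without them, and *Mgp*, matrix Gla protein, an inhibitor of calcification, rose from 1773 to 5650 CPM (3.19, 3.04 to 3.34). *Col1a1*, *Col3a1* and *Gsn* were among the genes that picked the fibroblast-gene cells, so lower levels without those cells follow from the choice. *Col1a1* had a ratio of 7.3 over all cells and 0 Adult UMIs outside the fibroblast-gene cells, and *Col3a1* had ratios of 1.83 and 0.84. *Gsn*, gelsolin, had a ratio of 97.5 over all cells, 501 of its 1860 Adult UMIs in 1 cell, and a ratio of 2.63 (1.77 to 3.79) without them. *Ptn*, pleiotrophin, had a ratio of 0.666 with and 0.0928 without these cells, and 96 of its 159 Adult UMIs lay in 1 cell.

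**Figure D3:**
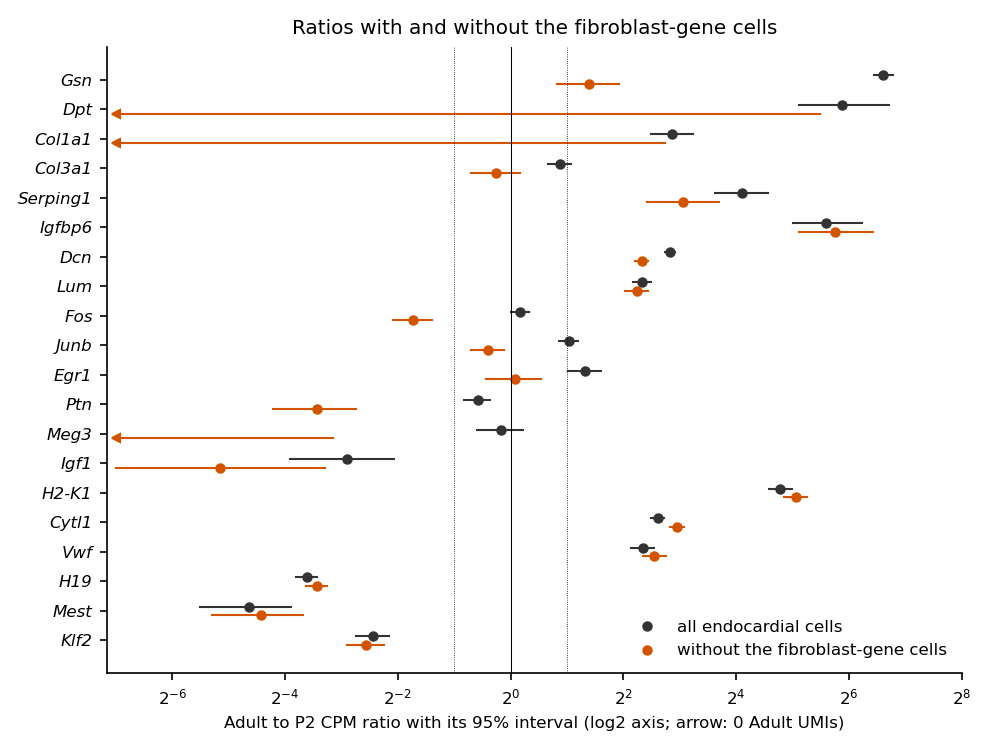
Adult to P2 ratio of CPM (log axis) for 20 genes, with all endocardial cells and without the fibroblast-gene cells; bars are exact 95% intervals and an arrow marks 0 Adult UMIs. Gsn moves from 97.5 to 2.63 and Col1a1 to 0 Adult UMIs, whereas Dcn stays at 5 or above.

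Antigen presentation was the list with the highest share of members above P2. Of 21 counted genes, 18 were higher in the Adult and 0 lower, with a median log2 ratio of 2.95, and without the fibroblast-gene cells 19 were higher. The summed level was 2019 CPM at P2 and 10585 CPM in the Adult, 5.24-fold. *B2m* (chr2:122147686-122153083), the light chain of every class I molecule, stood at 862 and 3927 CPM (4.56, 4.3 to 4.83). *H2-D1* (chr17:35262730-35267499), a classical class I heavy chain, stood at 548 and 2903 CPM (5.3, 4.94 to 5.67). *H2-K1* (chr17:33996017-34000347, minus strand), the other classical heavy chain, stood at 55.5 and 1527 CPM (27.5, 24 to 31.6). *H2-K1* was at 3.02 and 6.19 CPM in the E12 and E15 libraries, below its P2 level. The class I heavy chain genes are near-identical copies, so how their reads were divided between copies is uncertain, which applies most to *H2-Q6* (4 and 48 UMIs, ratio 206, 75.5 to 788) and *H2-Q7* (8 and 45 UMIs, ratio 96.7, 45.1 to 237).

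The enzymes that make and load the peptides were higher as well. *Psmb8* and *Psmb9*, catalytic subunits of the immunoproteasome, stood at 19.2 and 172 CPM (8.95, 6.49 to 12.2) and at 6.99 and 115 CPM (16.4, 10.5 to 25.6). *Tap2*, a subunit of the peptide transporter, had a ratio of 6.1, *Tap1* 2.98 and *Tapbp*, tapasin, 2.65. Class II genes, which are typical of professional antigen-presenting cells, were near 0 at P2 and low in the Adult. *Cd74*, the class II invariant chain, had 11 and 38 UMIs (59.4, 29.7 to 129), 15 of the Adult UMIs lay in 1 cell, and the ratio was 36.5 without that cell. *H2-Aa*, a class II chain, had 5 and 20 UMIs (68.7, 25 to 234). The 12 immune markers summed to 3.18 CPM at P2 and 13.7 CPM in the Adult, none reached the count needed for a call, and *Ptprc*, which encodes CD45, had 0 UMIs at P2 and 1 in the Adult.

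Because class I genes were higher together, the RefSeq promoters (GRCm38.p6) of *B2m* and 8 class I heavy chain genes were searched. Only the 250 bases before each gene start were read, on both strands, for 2 motifs. The first, of the kappa-B kind known from class I enhancers, was GGGGA followed by its inverted copy 1 base on, and the second, of the interferon-response kind, was GAAA repeated 2 bases on. The first was found in 3 of the 9 (*H2-D1*, *H2-K1* and *H2-Q6*) and in 15 of all 32851 promoters (0.0457%), these 3 included. Since this motif was chosen as one known from class I enhancers, the contrast follows from the choice and is no test of enrichment. The second was found in 3 of the 9 (*H2-T22*, *H2-T23* and *B2m*) and in 978 of all promoters (2.98%). Only these exact letters were searched, so a promoter without a match, such as that of *H2-K1* or *H2-Q6*, may still hold a variant interferon-response element. The windows around the match of 3 genes are shown 5′ to 3′ on the gene's strand with the match in capitals, to let the related *H2-K1* and *H2-Q6* upstream sequences (76 of 81 bases identical) be compared with that of *B2m*. They lie at chr17:34000413-34000493 (minus strand), chr17:35424642-35424722 and chr2:122147513-122147592, and the match starts 111, 173 and 139 bases before the gene start.
H2-K1: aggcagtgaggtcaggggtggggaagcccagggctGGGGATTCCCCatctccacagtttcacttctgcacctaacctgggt
H2-Q6: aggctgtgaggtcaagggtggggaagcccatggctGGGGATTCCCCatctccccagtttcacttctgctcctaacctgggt
B2m: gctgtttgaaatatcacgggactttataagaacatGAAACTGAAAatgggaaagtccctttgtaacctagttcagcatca
A match is a description of the letters in this window, not a bound site.

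Interferon-response genes were higher in part. Of 24, 12 were higher and 0 lower (median log2 ratio 1.09), and without the fibroblast-gene cells 14 of 23 were higher and 1 lower. *Ifitm3*, a restriction factor in endosomal membranes, stood at 1037 and 2857 CPM (2.76, 2.58 to 2.94), and *Iigp1*, an interferon-gamma induced GTPase, at 19.4 and 194 CPM (10, 7.36 to 13.5). *Isg15*, a ubiquitin-like effector of type I interferon, stood at 55.3 and 51.9 CPM (0.938, 0.558 to 1.49), and *Bst2*, tetherin, at 346 and 472 CPM (1.36, 1.16 to 1.59), so not every gene of the response differed.

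Among surface and secreted proteins facing the blood, every called gene of the 3 lists below was higher. Of 16 LY6 and leukocyte adhesion genes, 8 were higher and 0 lower (median log2 ratio 0.93). *Vcam1*, the ligand of leukocyte integrin VLA-4, stood at 170 and 915 CPM (5.39, 4.75 to 6.09), and *Icam1*, an adhesion ligand of leukocytes, at 109 and 289 CPM (2.64, 2.13 to 3.25). *Ly6e* and *Ly6a*, small surface proteins anchored by lipid, had ratios of 8.92 (7.65 to 10.4) and 8.36 (6.4 to 10.8), the latter 5.84 without the 1 cell that held 28 of its 88 Adult UMIs. *Selp*, P-selectin, had 19 Adult UMIs, of which 10 lay in 1 cell, with a ratio of 13.1, or 6.34 without that cell. Of 9 complement and lipoprotein genes, 5 were higher and 0 lower (1.45). *Clu*, clusterin, a secreted chaperone that also restrains complement, stood at 135 and 1461 CPM (10.8, 9.67 to 12). *Apoe*, apolipoprotein E, stood at 4404 and 12000 CPM (2.72, 2.64 to 2.81), and *Serping1*, the C1 inhibitor, at 12.7 and 218 CPM (17.2, or 8.36 without the fibroblast-gene cells).

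Of 14 genes of coagulation and fibrinolysis, 2 were higher and 0 lower (median log2 ratio 0.44, or 0.53 with the 1 member at 0 at its bound). Over all genes 7.01% were higher and 5.83% lower. *Vwf*, the multimer that captures platelets, stood at 148 and 751 CPM (5.07, 4.41 to 5.8). *Thbd*, thrombomodulin, which turns thrombin to an anticoagulant role, stood at 140 and 273 CPM, a ratio of 1.94 (1.56 to 2.39) just under the threshold, or of 2.27 without the fibroblast-gene cells.

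Genes that answer to shear stress and vessel tone moved in both directions. Of 17, 4 were higher and 3 lower (median log2 ratio -0.13). *Klf2*, the flow-induced zinc finger factor, stood at 1513 CPM at P2 and 279 CPM in the Adult (0.184, 0.15 to 0.224). Its embryonic levels were 258 CPM at E12 and 445 CPM at E15, so the P2 library stood highest. *Nts*, the peptide neurotensin, also stood highest at P2, with 39.2 and 153 CPM in the embryo, 967 CPM at P2 and 134 CPM in the Adult (0.138, 0.102 to 0.183, or 0.0857 without the 1 cell that held 19 of its 49 Adult UMIs). *Ace*, angiotensin-converting enzyme (3.47, 2.14 to 5.41), *Ptgis*, prostacyclin synthase (3.22, 2.42 to 4.23), *Cyp1b1*, a cytochrome P450 (5.14, 3.27 to 7.85), and *Gucy1a3*, a subunit of the nitric oxide receptor (2.76, 1.58 to 4.57), were higher. *Nos3*, endothelial nitric oxide synthase, stood at 123 and 112 CPM (0.908, 0.646 to 1.24), and *Edn1*, endothelin, at 130 and 65.5 CPM (0.504, 0.321 to 0.756).

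**Figure D4:**
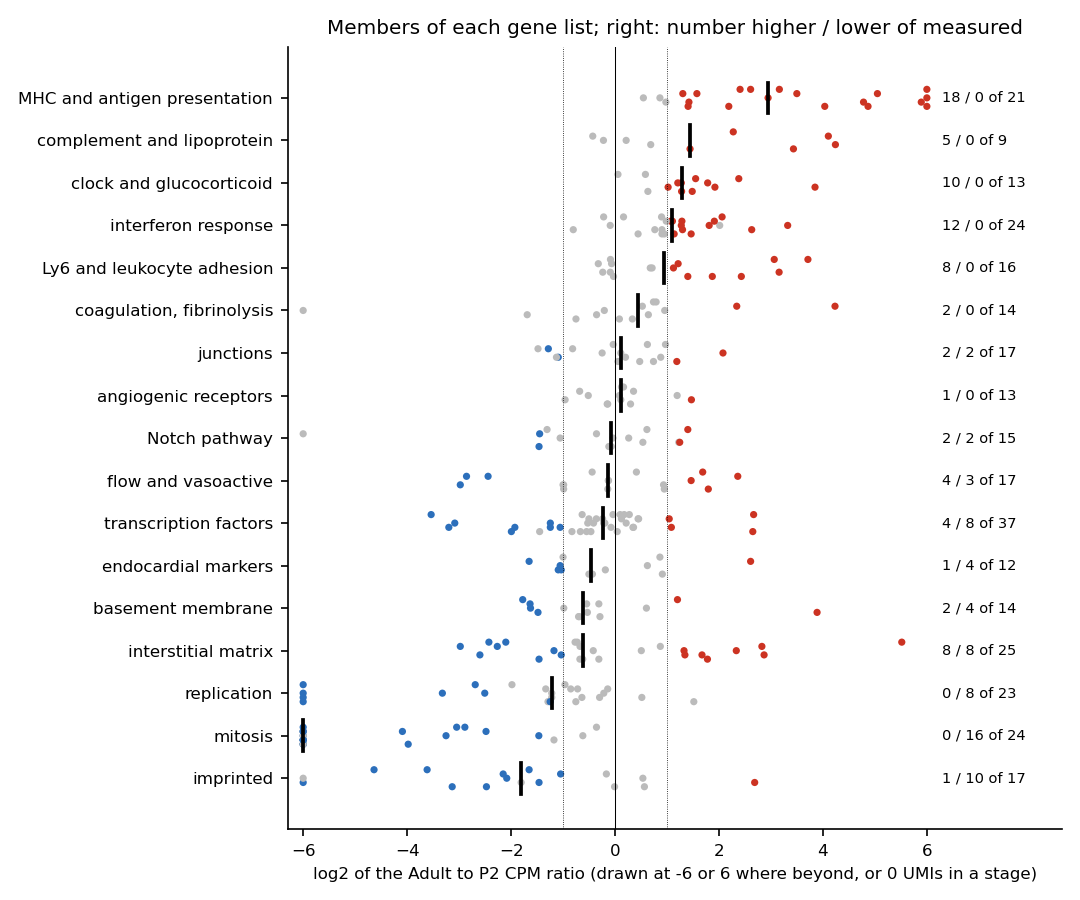
Log2 of the Adult to P2 ratio for the members of 17 gene lists in endocardial cells; each point is 1 gene, red where higher, blue where lower and grey otherwise, the black bar is the list's median, and points beyond the range or with 0 UMIs at a stage are drawn at the edges of the axis. The antigen presentation list lies to the right of 0 with a median of 2.95, and the imprinted list to the left with a median of -1.80.

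Genes of the signalling pathways were called in both directions, and are to be read against 7.01% higher and 5.83% lower over all genes. Of 15 Notch genes, 2 were higher and 2 lower (median log2 ratio -0.07). Among ligands, *Dll1* was lower (0.363, 0.132 to 0.8). Among receptors, *Notch2* was higher (2.37), with a ratio of 1.82 without the fibroblast-gene cells. Among targets, *Hes1* was lower (530 and 194 CPM, 0.366, 0.285 to 0.462) and *Hey1* higher (26.9 and 71 CPM, 2.64, 1.68 to 4.01). Of 17 BMP and TGF-beta genes, 1 was higher and 1 lower (0.11): *Tgfb1*, a ligand, stood at 214 and 51.9 CPM (0.243, 0.146 to 0.381), and *Acvrl1*, a type I receptor, at 20 and 43.7 CPM (2.18, 1.21 to 3.68). Leaving out the fibroblast-gene cells gave 3 higher and 2 lower of these 17 genes, and 1 higher and 2 lower of the 15 Notch genes.

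Of 13 growth factors that endothelium can send to the myocardium, 2 were higher and 2 lower (median log2 ratio 0.34), against 7.01% and 5.83% over all genes. *Igf1*, a growth factor of the insulin family, stood at 224 and 30 CPM (0.134, 0.0667 to 0.24), or at a ratio of 0.0281 (0.0034 to 0.102) without the fibroblast-gene cells, and *Wnt2*, a Wnt ligand, at 60.1 and 21.8 CPM (0.364, 0.156 to 0.724). *Ctgf*, a matricellular protein and target of YAP, stood at 6.99 and 98.3 CPM (14.1, 8.79 to 22.4), and *Pdgfd*, a platelet-derived growth factor, at 17 and 49.2 CPM (2.89, 1.65 to 4.79). Of 6 counted genes of IGF binding and reception, 2 were higher and 0 lower (0.53). *Igfbp6*, which prefers IGF2, had 32 UMIs at P2 and 90 in the Adult, 5.09 and 246 CPM (48.3, 32 to 74.8). *Igfbp7* had a ratio of 2 (1.6 to 2.48), or 1.46 without the fibroblast-gene cells. Of 13 angiogenic receptors, 1 was higher and 0 lower (0.11): *Nrp1*, a co-receptor of VEGF and semaphorins, rose from 530 to 1469 CPM (2.77, 2.53 to 3.04). *Kdr*, the main VEGF receptor, stood at 139 and 126 CPM (0.907, 0.659 to 1.22).

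Of 37 endothelial transcription factors, 8 were lower and 4 higher (median log2 ratio -0.24). *Sox4* and *Sox11*, SoxC factors of progenitors, stood at 395 and 46.4 CPM (0.118, 0.0683 to 0.189) and at 63.4 and 5.46 CPM (0.0861, 0.0104 to 0.313). *Tcf15*, a basic helix-loop-helix factor, stood at 125 and 13.7 CPM (0.109, 0.0354 to 0.257). *Nfatc1*, the calcium-regulated factor of early endocardium and valves, stood at 62.5 and 30 CPM, a ratio of 0.481 (0.238 to 0.87), or 0.564 (0.279 to 1.02) without the fibroblast-gene cells. *Gata4* stood at 101 and 71 CPM (0.706, 0.458 to 1.04) and *Hand2* at 98 and 126 CPM (1.28, 0.928 to 1.73), both cardiac factors below the threshold. *Tbx20*, a T-box factor of heart development, stood at 16.5 and 104 CPM (6.28, 4.21 to 9.19), *Mecom* at 61.8 and 131 CPM (2.12, 1.54 to 2.87), and *Epas1*, the hypoxia-inducible factor of endothelium, at 96.8 and 199 CPM (2.06, 1.59 to 2.63). *Meox1* was higher over all cells (6.35) and had a ratio of 0.442 (0.0109 to 2.6) without the fibroblast-gene cells.

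Among the endocardial markers themselves, 1 of 12 was higher in the Adult and 4 were lower (median log2 ratio -0.47). Without the fibroblast-gene cells 3 were higher and 1 was lower (-0.26). The summed level of the 12 markers over all cells was 4559 CPM at P2 and 5874 CPM in the Adult. *Cytl1*, a small secreted cytokine-like protein, stood at 9.05 and 116 CPM at E12 and E15, at 354 CPM at P2 and at 2160 CPM in the Adult (6.1, 5.62 to 6.62), and at a ratio of 7.72 without the fibroblast-gene cells. *Hmcn1*, hemicentin, had a ratio of 0.488 and *Cdh11*, a mesenchymal cadherin, 0.469, or 0.546 and 0.532 without the fibroblast-gene cells. *Plvap*, the diaphragm protein of endothelial fenestrae, stood at 800 and 1456 CPM (1.82, 1.66 to 1.99), or at a ratio of 2.05 without the fibroblast-gene cells. Of 25 genes that the study lists for its endocardial clusters, a list chosen on these same libraries, 6 were higher and 7 lower (-0.59). One of them was *Tm4sf1*, a tetraspanin-like membrane protein, which rose from 2963 to 6265 CPM (2.11, 2.02 to 2.21), and another was *Mdk*, the growth factor midkine, which fell from 794 to 101 CPM (0.127, 0.0895 to 0.176).

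Of 17 junction genes, 2 were higher and 2 lower (median log2 ratio 0.11), against 7.01% and 5.83% over all genes. Without the fibroblast-gene cells 3 were higher and 0 lower (0.28). *Cdh13*, a cadherin without a cytoplasmic tail that binds adiponectin, stood at 104 and 437 CPM (4.22, 3.53 to 5.02), and *Stab1*, a scavenger receptor, at 119 and 270 CPM (2.28, 1.83 to 2.81). *Gja1*, connexin-43, was lower (0.411, 0.149 to 0.907), or at 0.497 (0.18 to 1.1) without the fibroblast-gene cells. Of 14 caveolar and transport genes, 2 were higher and 0 lower (0.30): *Aqp1*, a water channel, stood at 177 and 612 CPM (3.45, 2.98 to 3.99), and *Ehd4*, an ATPase of endocytic membranes, at 92 and 273 CPM (2.97, 2.38 to 3.68).

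In energy metabolism, the shares of called genes were read against 7.01% higher and 5.83% lower over all genes. Of 17 genes of fatty acid and lipid handling, 0 were higher and 1 lower (median log2 ratio -0.22): *Fabp5*, a fatty acid binding protein, stood at 4919 and 2340 CPM (0.476, 0.444 to 0.509), or at a ratio of 0.538 without the fibroblast-gene cells. *Cd36*, the fatty acid translocase, stood at 169 and 270 CPM (1.6, 1.29 to 1.97). Of 20 genes of glycolysis and hypoxia, 3 were higher and 1 lower (0.23), among them *Pfkp* (3.3) and *Pfkl* (0.424), isoforms of phosphofructokinase. The housekeeping lists lay near the median of all genes. Of 78 ribosomal protein genes 0 were called (-0.13, ratios 0.593 to 1.41), of 79 nuclear genes of oxidative phosphorylation 1 was higher (-0.21), and of 13 mitochondrially encoded genes 0 were called (0.06).

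Of 21 redox and metal genes, 8 were higher and 2 lower (median log2 ratio 0.73). Without the fibroblast-gene cells 5 of 19 were higher and 2 lower (0.59). *Gstm1*, a glutathione transferase, stood at 104 and 669 CPM (6.44, 5.54 to 7.47), *Sepp1*, the plasma selenium carrier, at 856 and 2310 CPM (2.7, 2.51 to 2.9), and *Sod3*, the extracellular superoxide dismutase, at 19.2 and 95.6 CPM (4.97, 3.31 to 7.29). *Fth1*, the ferritin heavy chain, had a ratio of 2.3, or 1.95 without the fibroblast-gene cells. *Hmox1*, heme oxygenase, was lower with 1 Adult UMI (0.0949, 0.00239 to 0.536), and *Prdx2*, a peroxiredoxin, had a ratio of 0.485.

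Genes of the clock and of the glucocorticoid response were higher as a group, 10 of 13 with 0 lower (median log2 ratio 1.28). Without the fibroblast-gene cells 8 of 13 were higher and 0 lower (1.20). *Nr1d1*, the repressor REV-ERB alpha, had 25 UMIs at P2 and 21 in the Adult (14.4, 7.68 to 26.9), and *Per1* stood at 13 and 38.2 CPM (2.93, 1.54 to 5.21). *Tsc22d3*, the glucocorticoid-induced leucine zipper, stood at 392 and 907 CPM (2.31, 2.06 to 2.6), and *Ddit4*, an inhibitor of mTORC1 induced by stress and steroids, at 68.2 and 355 CPM (5.21, 4.25 to 6.35). The hour at which hearts were taken was not given in the sources used here, so the part of the clock in these values was not tested. *Fkbp5*, another glucocorticoid target, had 2 Adult UMIs (1.04, 0.121 to 4.07).

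Immediate early and heat shock genes, which tissue dissociation is known to induce, were read as well. Of 23 immediate early genes, 7 were higher and 3 lower (median log2 ratio 0.29), and without the fibroblast-gene cells 3 were higher and 8 lower (-0.40). *Egr1*, an early growth response factor, had ratios of 2.5 and 1.05 with and without those cells, *Atf3* 2.12 and 0.816, and *Nr4a1* 3.3 and 2.34. *Ppp1r15a*, a phosphatase subunit of the stress response, was lower in both (0.453 and 0.264). Of 13 heat shock genes, 1 was higher and 0 lower (-0.06): *Hspb1*, a small chaperone, stood at 86.9 and 227 CPM (2.61, 2.04 to 3.29). *Hspa1a*, the inducible chaperone, stood at 174 and 295 CPM (1.69, 1.38 to 2.07), whereas in CoECs its ratio was 8.22.

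Beyond the lists, the genes with the widest ratios were mostly scarce at P2. *Lcn2*, lipocalin 2, had 1 UMI at P2 and 39 in the Adult (670, 113 to 27143), but 36 of the 39 lay in 1 cell and the ratio was 52.8 without it. *Hamp*, hepcidin, the hormone of iron balance, had 0 UMIs at P2 and 57.4 CPM in the Adult, at least 120-fold higher, with 12 of 21 UMIs in 1 cell. *Mmp3*, a matrix metalloproteinase, had 0 UMIs at P2 and 60.1 CPM in the Adult, at least 126-fold higher, and stood at 0 CPM without the fibroblast-gene cells. These 3 therefore describe few cells. Of the other genes at this end, *Fibin*, *Pcolce2*, *Crispld2*, *Dpt* and *Mfap4* encode secreted proteins, mostly of the matrix, and their ratios over all cells ran from 45.8 (*Mfap4*) to 82.5 (*Fibin*). Without the fibroblast-gene cells *Fibin*, *Pcolce2* and *Dpt*, the last of which helped to pick those cells, stood at 0 CPM in the Adult, *Mfap4* stood at 6.36 CPM against 175 CPM with them, and *Crispld2* had a ratio of 4.64 (0.0941 to 46.8). Spread over other cells were *Degs2*, a sphingolipid desaturase (4 and 25 UMIs, 107, 37.1 to 425, or 155 without the fibroblast-gene cells), and *Hpgd*, which degrades prostaglandins (6 and 29 UMIs, 83.1, 33.9 to 245, or 100 without them).

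At the other end stood cell cycle partners and proteins of the cell cortex. *Cks1b* and *Cks2*, small partners of cyclin-dependent kinases, had 858 UMIs at P2 and 2 in the Adult (0.0401, 0.00484 to 0.145), and 460 and 0 (at least 8.92-fold lower). The bound for *Cks2* did not hold in 2 alternatives: its ratio was 0.204 with every barcode thinned to 1000 UMIs and 0.189 with *Fabp4* left out of the rule. *Marcksl1*, a membrane protein that binds actin, stood at 760 and 62.8 CPM (0.0827, 0.0524 to 0.124). *Gap43*, a growth cone protein, stood at 52.8 CPM with 0 Adult UMIs (at least 6.44-fold lower), and *Tmem158*, a Ras-induced membrane protein, at 416 and 41 CPM (0.0985, 0.0551 to 0.163). *Tmem158*, unlike *Marcksl1*, was also low before birth, at 9.55 CPM at E12 and 71.4 CPM at E15, against 950 and 862 CPM for *Marcksl1*. *Dusp2*, a phosphatase of MAP kinases, had 803 and 3 UMIs (0.0642, 0.0132 to 0.188), *Cotl1*, an actin-binding protein, 941 and 4 (0.0731, 0.0199 to 0.188), and *Akirin2*, a nuclear protein, 645 and 2 (0.0533, 0.00644 to 0.193).

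The same ratios were taken in the CoECs of these libraries and set beside those of the endocardial cells. The 2 comparisons use the same 2 libraries, so a difference between libraries enters both. Beyond the mirrored rule, no step set other cell types apart in the CoECs. In P2 and Adult CoECs, lymphatic genes summed to 142 and 47.3 CPM and immune genes to 3.38 and 248 CPM. Mural genes summed to 63.7 and 311 CPM. The part of such cells in the coronary ratios was not tested. The 10111 genes set side by side were counted in endocardial cells, after the exclusions of the ranking, with no least count in CoECs. Of these, 312 were called higher in both cell types and 286 lower in both, and 28 were called in opposite directions. Of 721 genes higher in endocardial cells, 24 were lower in CoECs (3.33%, against 10.8% of all these genes). Of 601 lower ones, 4 were higher in CoECs (0.666%, against 7.93%). Class I genes had ratios above 1 in both: *B2m* had a ratio of 4.1 in CoECs and *H2-K1* 14.6, against 4.56 and 27.5, and the antigen presentation list had a median log2 ratio of 2.13, against 2.95. *Mest* was lower in both, with a ratio of 0.0333 in CoECs against 0.0402.

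Other values differed between the cell types beyond counting error. A ratio of ratios, endocardial over coronary with a 95% interval, was used for this. It was formed after 0.5 was added to each count, so it can differ from the quotient of the ratios beside it. *Cdkn1c* was lower in endocardial cells (0.18) and had a ratio of 1.59 in CoECs, a ratio of ratios of 0.114 (0.0922 to 0.141). *H19* was lower in both, but its coronary ratio was 0.00828 against 0.0816 (9.83, 7.72 to 12.5). *Tcf15*, a coronary marker, had 0.109 against 1.15 (0.105, 0.0452 to 0.242). Collagen IV belonged to the same group, since *Col4a1* had 0.322 against 0.835 (0.389, 0.297 to 0.51) and *Col4a2* 0.292 against 1.13 (0.264, 0.176 to 0.394). *Fbln2* had 0.165 against 0.862 (0.195, 0.133 to 0.285). Thus these 3 matrix genes, lower in the endocardium, had coronary ratios between 0.835 and 1.13. *Slc26a10*, an anion exchanger by its family, had 0.12 against 1.77 (0.0764, 0.0302 to 0.193), and *Slc6a6*, the taurine transporter, 0.242 against 1.58 (0.163, 0.0825 to 0.32). Other genes were called higher in CoECs and had few Adult endocardial UMIs. *Cyp26b1*, which degrades retinoic acid, had 2 (0.881 against 32.2), *Mnda*, an interferon-inducible protein, had 1 (0.253 against 11.1), and *Ptger4*, a prostaglandin E2 receptor, had 7 (1.11 against 8.89).

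In the other direction, among the 10 ranked genes, *Hpgd* had the widest difference of those not held mostly by 1 cell or by the fibroblast-gene cells, 83.1 against 0.624 (123, 46.9 to 322). *Slc45a3*, a sugar transporter by its family, had 3.53 against 0.0952 (36, 15.6 to 83.1), and *Irak1bp1*, a binding partner of the kinase IRAK1, had 10 Adult UMIs (10.7 against 0.215, 45.7, 13.3 to 157). *Prelp* had 18.3 against 1.4 (13, 8.63 to 19.7). Genes with smaller differences include several of the blood-facing and matrix lists, named here after their values were seen. *Bgn* had 3.43 against 1.13 (3.04, 2.7 to 3.41), *Vcam1* 5.39 against 1.97 (2.74, 2.33 to 3.23), *Icam1* 2.64 against 0.976 (2.72, 2.18 to 3.4) and *Vwf* 5.07 against 2.12 (2.39, 2 to 2.84). *Plvap*, lower in Adult CoECs (0.379), had 1.82 in endocardial cells (4.8, 4.1 to 5.62). *Gpm6a*, a membrane glycoprotein first known from neurons, stood at 130 and 481 CPM in endocardial cells (3.71, 3.14 to 4.37) and had a ratio of 0.396 in CoECs (9.33, 6.89 to 12.6). *Kdr* and *Flt1*, receptors of VEGF, had ratios of 0.907 and 1.28 in endocardial cells and of 2.03 and 2.98 in CoECs (0.45, 0.335 to 0.606, and 0.432, 0.355 to 0.525). *Hspb1* had 2.61 against 10.5 (0.249, 0.197 to 0.315), and the heat shock list had a median log2 ratio of 0.47 in CoECs against -0.06 in endocardial cells.

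**Figure D5:**
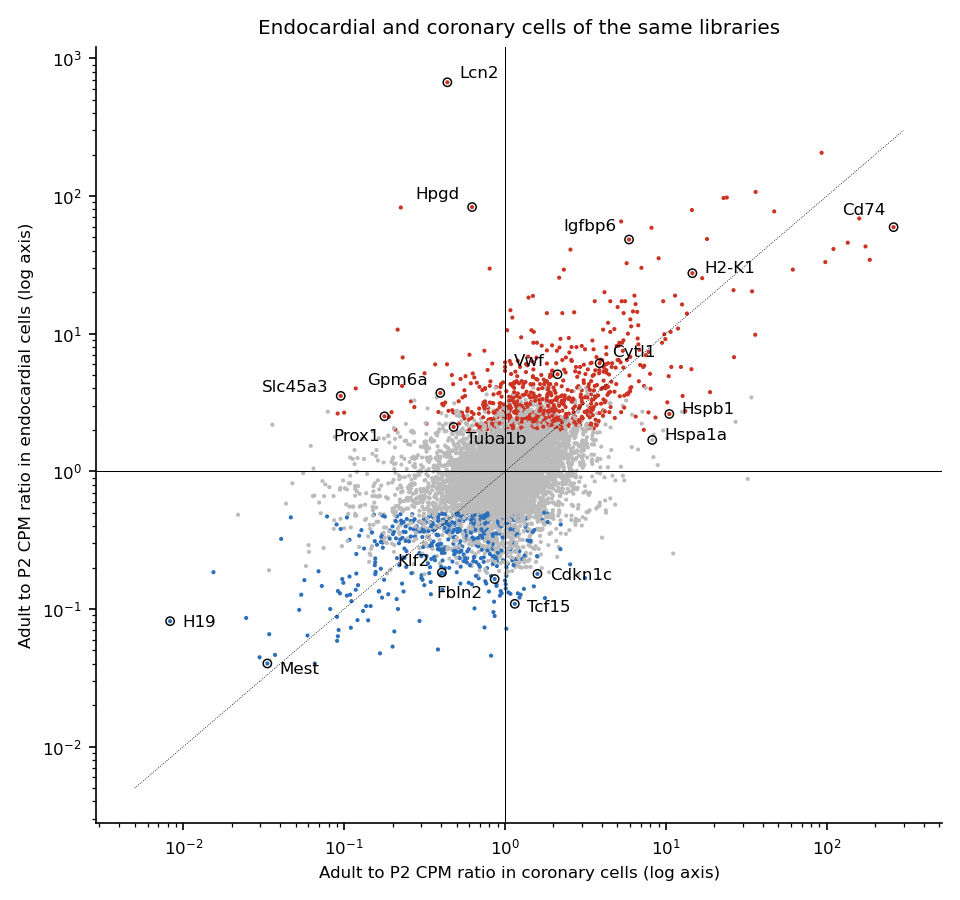
Adult to P2 ratio of CPM in CoECs (x) and endocardial cells (y), log axes, with 1 point per gene and the diagonal marking equal ratios. Red and blue mark genes higher or lower in Adult endocardial cells. Cdkn1c, Tcf15 and Hspb1 lie below the diagonal, and Gpm6a, Vwf and Hpgd above it.

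Lists of other cell types that such a sort could hold were read in full. Of 10 cardiomyocyte genes counted, 0 were higher and 1 lower (*Tnnt2*, 38.5 and 8.19 CPM). Of 5 mural genes, 2 were higher (*Pdgfrb*, 8.9 and 30 CPM, and *Abcc9*, 5.24 and 21.8 CPM, with 5 of 8 Adult UMIs in 1 cell and ratios of 4.17 with and 1.69 without the fibroblast-gene cells). Of 3 lymphatic genes, 1 was higher: *Prox1*, also a valve marker, stood at 20.7 and 51.9 CPM, with a ratio of 2.51 (1.47 to 4.08). The hemoglobin and platelet lists had 2 genes each and 0 calls, and *Wt1*, the 1 epicardial gene counted, stood at 23.5 CPM with 0 Adult UMIs, at least 2.87-fold lower. Over the alternatives the *Wt1* ratio ran from 0 to 0.55. Of 2 mesenchyme genes, 1 was lower (*Vcan*). Of 15 coronary genes outside the rule, 4 were higher and 2 lower (median log2 ratio 0.23), and of 9 valve genes, 3 were higher and 0 lower (0.53), among them *Cryab*, a small chaperone (48.3 and 265 CPM, ratio 5.48), and *Dkk2*, a Wnt antagonist, with 15 of its 16 Adult UMIs in 1 cell and a ratio of 0.314 without it. Without the fibroblast-gene cells 5 of the 15 coronary genes were higher and 2 lower (0.41), and 5 of the 9 valve genes were higher and 0 lower (1.03). Apart from the fibroblast list, whose values are given above with and without its cells, the part of these transcripts in the other results was not tested.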

How the data were processed

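Droplet single-cell RNA-seq was done on 4 libraries of sorted cardiac endothelial cells, 1 per stage. The deposited values are raw UMI counts per gene and barcode (27998 genes), which the authors made with Cell Ranger (2.2 in the submitters' processing notes) on mm10. Here cells were chosen by the rule on 13 genes, their counts were summed per stage and divided by the stage's total (CPM), and the Adult to P2 ratio was given an exact conditional binomial interval (95%). CPM intervals are exact Poisson. Ratios of ratios were formed with 0.5 added to each count and have Wald intervals on the log scale. PCR duplicates were collapsed by UMI, and neither intervals nor floors (3 counts over a stage) reach beyond counting error. Stages were compared as values, without a test, since neither had a second library. Genes with fewer than 20 UMIs over both stages were not counted. Doublets were kept, and barcodes with a doublet score over 0.15 (250 P2, 112 Adult) were left out as an alternative. That left 1320 P2 and 124 Adult endocardial cells. Of doublets made from pairs of barcodes, 52.1% at P2 and 20.1% in the Adult scored over this limit. Most Adult doublets would therefore stay in, and this alternative can show little of their part.

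Named genes were the 15 with the highest and the 15 with the lowest ratio by the bound nearest 1, members of the gene lists, and the 10 in each direction that differed most from coronary cells. Hemoglobin, sex-linked, mitochondrial and ribosomal genes and unnamed models were left out of that ranking, and a few genes are not reported here. List members were named as examples after their values were seen, and the members and lists were chosen with earlier results of these data known. Promoter sequence was from RefSeq (GRCm38.p6), and gene positions were from GRCm38 annotation. Alternatives were thinning, stricter rules, the study's quality limits, removal of doublets, of dividing cells and of cells of other types, other scalings and a lower count minimum. On simulated data (10665 genes of this comparison), 97.1% of intervals held the true ratio and 1.37% of unchanged genes were called, while 54.0% of genes lowered to 0.5 and 86.0% of genes raised 2.5 times were called. The simulated counts were Poisson draws from the summed P2 profile, which the interval assumes, so its coverage followed from that model. Clustering of UMIs in single cells was not simulated. The changed genes were all abundant at P2, so these shares do not apply to scarce genes. Python 3.11.15, numpy 2.4.6, scipy 1.17.1, pandas 2.3.3, scikit-learn 1.9.0 and matplotlib 3.10.9 were used.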

Additional observations from a re-analysis of the deposited data

Results flagged for a closer look

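A total of 14 genes were called in opposite directions in endocardial cells and CoECs, both over all cells and without the fibroblast-gene cells. Each comparison has 1 library per stage, so the difference was not tested beyond counting error, and the values are given as they stand.

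In endocardial cells *Anxa1*, annexin A1, had an Adult to P2 ratio of 2.78 against 0.47 in CoECs, *Tuba1b*, an alpha-tubulin, 2.1 against 0.479, and *Gpm6a* 3.71 against 0.396. *Prox1* had 2.51 against 0.178, *Megf6* 2.22 against 0.325, and *Fam213a* 3.09 against 0.407. *Prox1* is also a lymphatic gene, and the lymphatic list summed to 142 CPM in P2 CoECs and 47.3 CPM in Adult CoECs. Whether lymphatic cells among the CoECs entered its coronary ratio was not tested. Scarcer in the Adult cells were *Ctnnal1* (2.01 against 0.208, 13 Adult UMIs), *Pkp2*, plakophilin 2 of desmosomes (2.63 against 0.0911, 13 UMIs), *Slc45a3* (3.53 against 0.0952, 16 UMIs), *Irak1bp1* (10.7 against 0.215, 10 UMIs), *Nrxn2*, a neurexin (5.98 against 0.368, 8 UMIs), and *Wnk4*, a kinase that controls ion transport (2.7 against 0.385, 8 UMIs). Some coronary ratios rest on very low Adult CoEC levels. These were 0.145 CPM for *Pkp2* (coronary ratio interval 0.00224 to 0.544), 0.581 CPM for *Irak1bp1*, 0.726 CPM for *Wnk4* and 0.871 CPM for *Nrxn2*. *Lcn2* had 670 against 0.438, with 36 of its 39 Adult UMIs in 1 cell. *Pitpnc1*, a phosphatidylinositol transfer protein, was the 1 gene lower in endocardial cells and higher in CoECs, 0.272 against 2.21, with 4 Adult UMIs. The tubulin genes have near-identical copies, so how reads were divided between *Tuba1b* and its copies is uncertain.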

How the results depend on the processing

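The counts of 753 higher and 626 lower genes rest on 127 Adult cells and 1 library per stage, so leaving out a replicate was not possible. No paired analysis was possible because each stage had 1 library and no test was run. Genes at or below a few Adult UMIs are limited by depth. The higher and lower counts were 331 and 283 with every barcode thinned to 1000 UMIs (90 Adult cells), 320 and 259 in cells with no UMI of the coronary genes (28 Adult cells), and 294 and 203 in cells without UMIs of other types (25 Adult cells), where fewer cells and genes entered. The other 22 values of the counts stayed within 1.5 times. P2 cells were also thinned to the median of all Adult barcodes, 1510 UMIs, which lies below the median of 2619 in the Adult endocardial cells. The 2 groups were therefore not matched in depth. With P2 so thinned the counts were 557 and 598, and with ratios divided by the median ratio 875 and 530. The share of calls that were higher thus ran from 48.2% to 62.3% over these, against 54.6%.

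Of 2596 values of the named genes' ratios, 2076 stayed within their counting interval, 481 moved past it and 39 changed direction. A change of direction was counted only for genes called over all cells. *Col3a1*, at 1.83 over all cells and 0.84 without the fibroblast-gene cells, was therefore not among the 39. Of 479 values of list medians, 12 moved by more than 1 SD of the members' log2 ratios and 3 changed direction. For lists, a change of direction was counted only where the median over all cells was at least 0.5 in size. Smaller medians also changed sign, such as that of the immediate early list, 0.29 over all cells and -0.40 without the fibroblast-gene cells. Leaving out the fibroblast-gene cells, leaving *Fabp4* out of the rule, and leaving out the 1 Adult cell with most UMIs of a gene, were alternatives chosen after seeing the data. Without the fibroblast-gene cells, *Col1a1*, *Dpt*, *Fibin* and *Pcolce2* stood at 0, *Meox1* at 0.442 and *Atf3* at 0.816, and with P2 also thinned the same 4 genes stood at 0, *Meox1* at 0.526 and *Atf3* at 0.826. With both libraries thinned, *Col1a1*, *Meox1*, *Nrxn2* and *Pcolce2* stood at 0, *Atf3* at 0.363, *Egr1* at 0.774 and *Acvrl1* at 0.969. In cells with no UMI of the coronary genes, *Abcc9*, *Dkk2*, *Prox1* and *Wnk4* stood at 0, *Ctnnal1* at 0.682, *H2-T22* at 0.895, *Tnnt2* at 1.47 and *Fbln5* at 2.58, and the median log2 ratio of the valve list was -0.45, of the replication list 0.12 and of the interstitial matrix list 0.98. Without cells that held UMIs of other types, *Abcc9*, *Col15a1*, *Col1a1*, *Ctnnal1*, *Dkk2*, *Meox1*, *Prox1* and *Slc45a3* stood at 0 and *Hey1* at 0.621. Under the study's quality limits *Dkk2* and *Fibin* stood at 0, and without its highest Adult cell *Dkk2* stood at 0.314. The cause of these changes was not tested.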
